A study of Mus musculus with 2 samples.

Results

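The niche described here was the set of small squares of injured brain in which transcripts of Arg1 and Msr1 lay together 3 days after controlled cortical impact (CCI). It held 967 bins of 16 µm, which was 2.47% of the 39116 bins with at least 100 unique molecular identifiers (UMIs, the counted molecules) at array columns under 130, the side of the section that carried the lesion. The whole series held 227556 bins in 2 sections. The members were chosen by measured values: a bin belonged to the niche if it and the bins touching it, a block of 3 by 3 bins, held at least 3 UMIs of Arg1 plus Msr1. These genes set the membership and are left out of every result. The other genes were measured in the same bins, so they describe what lay beside Arg1 and Msr1 and are no independent replicate of the niche.

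Gene expression was read with Visium HD, an assay for fixed, paraffin-embedded tissue in which probe pairs for each gene bind the section and are then read out by position from a dense array of barcodes. The section came from 1 male C57Bl6 mouse (C57BL/6 J in the study's methods), 3 months old when it was injured and taken 3 days after CCI to the right parietal lobe. For CCI those methods give ketamine and medetomidine anesthesia, buprenorphine and bupivacaine for pain and removal of a bone flap, and name no other treatment. A second section, from 1 male mouse of the same strain, injured at the same age and taken 28 days after CCI, is used here only for a few values set beside the niche, and no uninjured section was analysed here. In CCI a piston deforms the cortex of 1 hemisphere, so a section holds a focal lesion and an opposite side that was not struck.

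Arg1 encodes arginase 1, which splits arginine into ornithine and urea, and Msr1 encodes a scavenger receptor that takes up modified lipoproteins and cell debris. Both are used as markers of macrophages that enter injured tissue from the blood, and resting microglia carry little of either. After a brain injury such macrophages clear dead cells, myelin and spilled blood beside the resident microglia, and they share most of their lineage genes with them. A bin can hold parts of several cells, so each value below belongs to a piece of tissue and not to a cell type.

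The rule was sparse. The median block held 4 UMIs of Arg1 plus Msr1 and the fullest held 16. Of the members, 600 had 3 or 4 such UMIs in the block, 315 had 5 to 9 and 52 had 10 or more, and 385 (39.8%) held a rule UMI in the bin itself. Just inside the threshold, 368 members had exactly 3 UMIs in the block, and just outside it 769 bins had exactly 2. No bin at column 130 or above met the rule. The niche was broken into 77 patches of touching bins, of which 18 were single bins, 13 held at least 20 members and the largest held 129. All but 6 members lay in the field around the tissue defect. These 6 lay in a strip of tissue apart from it, at array rows under 150, which also brought in 997 of the neighbours.

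Each gene was compared between the niche and its neighbours, the 11218 bins of the same side within 32 bins (512 µm) of a member whose block held 0 UMIs of Arg1 and Msr1. A second comparison used the 6190 phagocyte-bearing neighbours, those with at least 3 UMIs of the phagocyte genes Lgals3, Laptm5, Cd52, Cd68, Ctsz and Lyz2 in the block. These 6 genes had placed the lesion in earlier work on these data and were left out of the second comparison. Levels are UMIs of a gene scaled to 1000000 UMIs of the set of bins (CPM), and differences are log2 ratios of CPM with 0.5 UMI added. Intervals in parentheses are 95% exact intervals of the ratio that cover counting error only. With 1 section there is no replicate check, so no p-value was computed and a gene was counted as higher or lower from a 2-fold ratio. The niche was shallower than its neighbours, with a median of 539 UMIs and 471 genes a bin against 729.5 UMIs and 616.5 genes, and 595880 UMIs in all. Fewer cells of a type and less RNA per cell cannot be told apart in such sums.

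**Figure D1:**
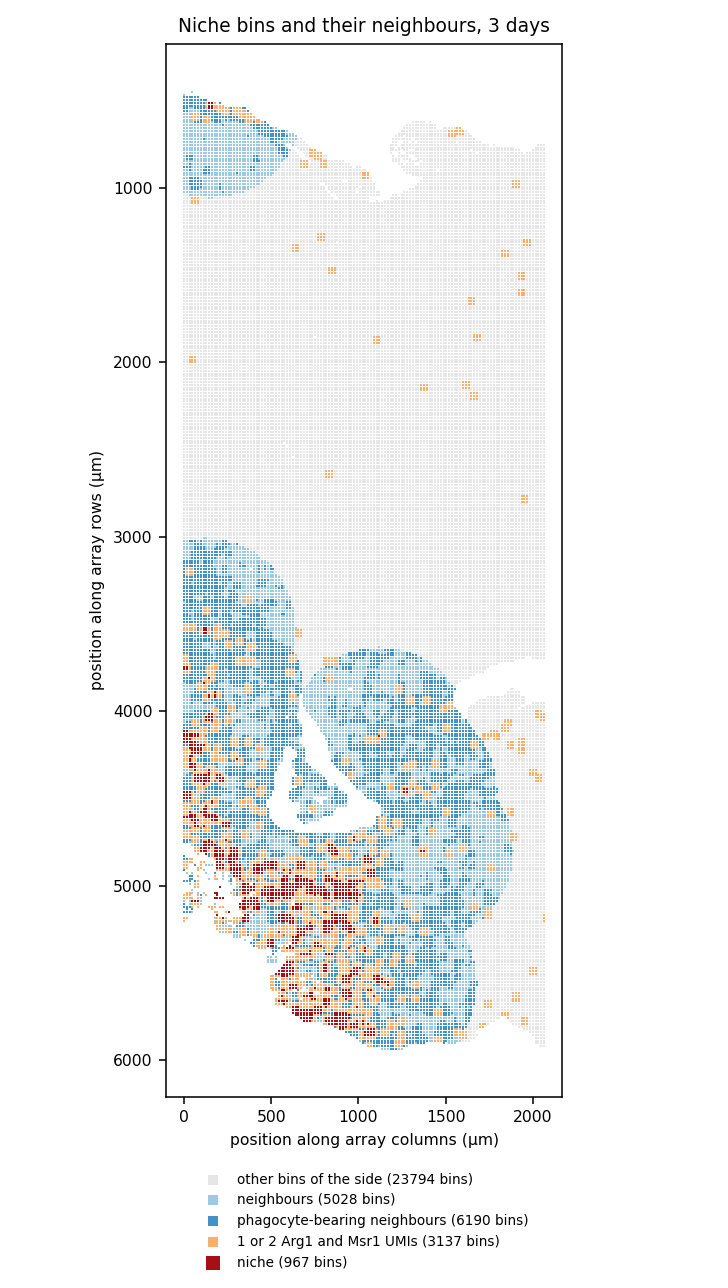
Positions of the bins at columns under 130 in the 3 days section, in µm along the array axes, with each square 1 bin of 16 µm and its class in colour. Most of the 967 niche bins lie in patches around the tissue defect, within a wider scatter of 3137 bins that had 1 or 2 Arg1 and Msr1 UMIs in the block. The median distance of niche bins to the nearest larger stretch of empty array is 288 µm (308 µm for the neighbours). Such a stretch can be a hole or the space outside the tissue, so this distance does not measure closeness to the defect.

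The highest ratios in the niche belonged to genes of varied roles, among them Thbs1, Spp1, Adam8 and Hmox1. Among genes with at least 200 UMIs the highest was that of Thbs1, a secreted thrombospondin that binds matrix and cell surface receptors, with 863 CPM in the niche, 217 CPM in bins with 1 or 2 rule UMIs, 40.5 CPM in the neighbours and 6.03 CPM at columns of 130 and above. Its log2 ratio was 4.41 (4.22 to 4.60) against the neighbours and 3.85 (3.65 to 4.05) against the phagocyte-bearing ones. Spp1, which encodes the secreted glycoprotein osteopontin, had 2732 CPM in the niche, 801 CPM in the bins between and 144 CPM in the neighbours, a ratio of 4.25 (4.14 to 4.35). Both genes were above the neighbours' level in each of the 13 patches with at least 20 members. With the neighbours weighted to the depth of the niche's blocks the ratios shrank to 3.65 for Thbs1, 3.37 for Spp1 and 3.37 for Adam8. The globin genes Hba-a2 and Hbb-bs, also among the 15 highest, fell further, to 1.01 and 1.17.

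Hmox1, the enzyme that opens the heme ring and frees its iron, had 1374 CPM in the niche against 97.5 CPM in the neighbours (3.82, 3.68 to 3.95) and was above that level in 13 of 13 patches, from 269 to 3664 CPM. Adam8, a membrane protease of leukocytes, reached 238 against 13.6 CPM (4.13, 3.78 to 4.48), again in 13 of 13 patches. Plin2, a coat protein of lipid droplets, had 304 against 32.8 CPM (3.21, 2.94 to 3.48) and Gpnmb, a glycoprotein of lipid-laden phagocytes, 566 against 60.5 CPM (3.23, 3.03 to 3.42). Both stood above the neighbours in all 13 patches. Ms4a6d (3.20, 2.81 to 3.58), Lilrb4a (3.54, 3.12 to 3.95), an inhibitory receptor of myeloid cells, and Tnfrsf1b (2.90, 2.52 to 3.26), a receptor of tumour necrosis factor, were higher in 11, 12 and 12 of the 13 patches. For Adam8 and these sparse genes every patch with a UMI lay above the neighbours. Their counts show only in how many patches the gene was seen. Tubb6, a beta tubulin, was higher in 13 of 13 (3.04, 2.76 to 3.31).

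**Figure D2:**
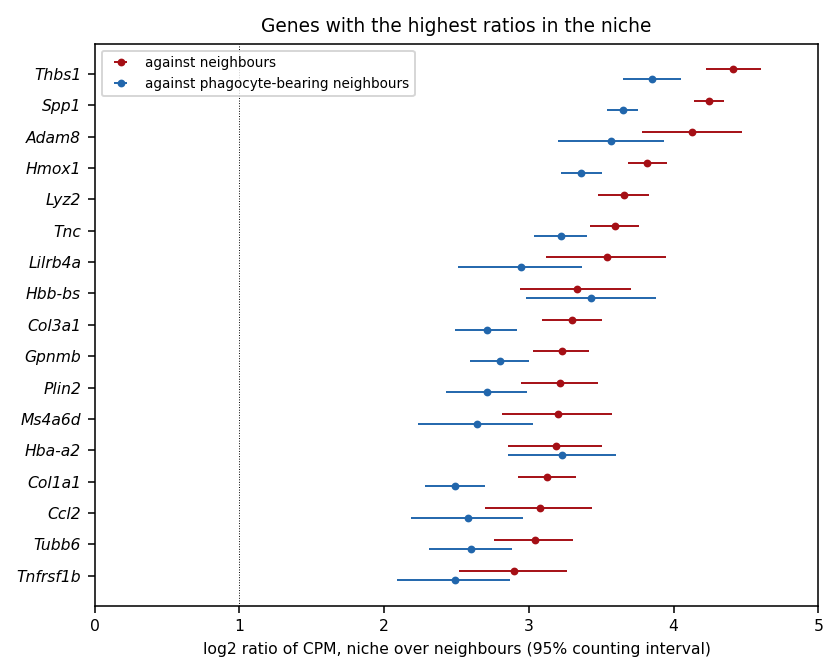
Log2 ratios of CPM for genes with the highest ratios in the niche, against all neighbours (red) and against phagocyte-bearing neighbours (blue), with 95% counting intervals. Among genes with at least 200 UMIs Thbs1 and Spp1 have the highest ratios in both comparisons, and Lyz2 has no second value because it helped to choose the phagocyte-bearing bins.

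Over all genes the niche differed widely from its surroundings. Of 12509 genes with at least 50 UMIs, 1307 (10.4%) were at least 2-fold higher and 1500 (12%) at least 2-fold lower, with a median log2 ratio of 0.01 and 5th and 95th percentiles of -1.58 and 1.51. The counting interval was clear of no change for 1213 of the higher genes and 1211 of the lower ones. Against phagocyte-bearing neighbours 844 of 11833 genes (7.13%) were higher and 1124 (9.5%) lower, 814 and 946 of them with an interval clear of no change. The split depended on the scale. Counted as UMIs per bin rather than as CPM, all ratios moved down by 0.57 because niche bins held fewer UMIs, and 574 genes were higher against 3537 lower. With neighbours within 16 bins in place of 32, 780 genes were higher and 872 lower.

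Most genes at the low end are known from the choroid plexus and the ciliated ependyma of the ventricles. Ttr, the transthyretin of choroid plexus, had 195 CPM in the niche and 12445 CPM in the neighbours. Folr1, a folate receptor of choroid plexus, had 0 UMIs in the niche and 623 in the neighbours, at least 12.0-fold lower against a floor of 3 counts over the niche, and Otx2, Prlr, F5, Slc4a5, Drc7, Rsph1 and Ccdc153 likewise had 0 UMIs. Zmat4, the other of the 10 lowest genes, also had 0. Blocks with a UMI of Folr1, Otx2, Clic6, Ccdc153 or Rsph1 made up 21.3% of the neighbours and 5.58% of the niche. With those neighbours left out, a choice made after these values were seen, Ttr had a ratio of 0.41. The 54 niche bins near such UMIs were kept, so the sides were not filtered alike. Zmat4 was then the lowest gene, followed by Cbln2 (1 UMI against 320) and Ntsr2, an astrocyte-rich neurotensin receptor (2 against 447). Slc17a6, the vesicular glutamate transporter of thalamic neurons, had 3 UMIs against 557, a ratio of -3.63 (-6.13 to -2.30). This change of reference left 1307 genes higher and 1309 lower.

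The niche was then read for markers of the cells a bin could hold. These lists were chosen with earlier results of these data known, so they are no independent check that the niche held macrophages. Genes shared by macrophages and microglia were higher as a group: 15 of 17 were at least 2-fold higher than in the neighbours, with a median of 1.77, and 9 of the 14 that could be compared with phagocyte-bearing neighbours, with a median of 1.21. Lyz2, the lysozyme of myeloid cells, had 784 against 62.1 CPM (3.66, 3.48 to 3.83), and Cd68, a lysosomal glycoprotein of phagocytes, 366 against 59.5 CPM (2.62, 2.39 to 2.85). The lowest ratio of the list was that of Aif1 (0.58, 0.14 to 0.97). The list's summed level was above that of the neighbours in 13 of 13 patches, from 3794 to 11128 CPM.

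Genes listed for macrophages that enter injured tissue had higher ratios. Reactive microglia also carry several of them, among them Spp1 and Gpnmb, and the microglial list holds mainly genes of resting microglia, so these lists cannot tell infiltrating macrophages from reactive microglia. Of the 12 genes of the infiltrating list 10 reached 50 UMIs over the niche and its neighbours, and all 10 were higher, with a median of 3.00. Cd36 and Ms4a7 passed that minimum only with their niche UMIs, and the 8 genes with at least 50 UMIs in the neighbours alone had a median of 2.98. All 9 that were measured against phagocyte-bearing neighbours were higher, with a median of 2.45, and so were the 7 left without Cd36 and Ms4a7, with a median of 2.45. Besides Spp1, Gpnmb and Plin2 these included Cd36 (3.62, 2.87 to 4.33), a scavenger receptor that imports fatty acids, and Fabp5 (1.12, 0.98 to 1.26), a fatty acid chaperone with the lowest ratio of the list. Of 5 measured monocyte genes 4 were higher, with a median of 2.66, among them Ccr2, the receptor that draws monocytes from the blood, with 31 UMIs in the niche and 61 in the neighbours, a far larger set (3.14, 2.46 to 3.78). Monocyte transcripts were sparse, and 4 of the 13 patches had 0 of them. The border macrophage list, named for the macrophages of vessels and meninges, was higher in 5 of 5 measured genes, 1 of which, Siglec1, passed the minimum only with its niche UMIs, and in 13 of 13 patches. Its highest ratio was that of Pf4, a chemokine that platelets also carry (3.91, 3.30 to 4.50, and 2.76 with depth-weighted neighbours), while Lyve1 had 1 UMI.

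Genes of resting microglia differed less. Of 8 measured, 1 was higher and 1 lower, with a median of 0.37 against the neighbours (-0.20 counted per bin) and 0.02 against phagocyte-bearing neighbours. Both counts were near the shares over all genes, 10.4% higher and 12% lower than in the neighbours. The summed level of the list, which abundant genes set, was 1103 CPM against 568 CPM in the neighbours and 743 CPM in the phagocyte-bearing ones, and was above the neighbours in 12 of 13 patches. Tmem119, a microglial membrane protein, had 50.3 CPM in the niche and 37.0 CPM in the neighbours (0.47, -0.14 to 0.98), and P2ry12, a purine receptor of resting microglia, 13.4 and 20.9 CPM (-0.56, -1.87 to 0.37), so neither differed beyond its counting error. Siglech was lower, with 1 UMI against 150 (-2.54, -8.43 to -0.62). In bins thinned to 300 UMIs, 27.4% (24.2 to 30.7) of niche bins held a microglial UMI, 16.9% of the neighbours and 21.4% of the phagocyte-bearing ones. Unthinned shares were 39.6%, 31.4% and 38.5%.

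Other leukocytes left few transcripts. The neutrophil list held 121 UMIs in the niche. S100a9 and S100a8, calcium-binding proteins of neutrophils that monocytes also carry, were higher (3.52 and 3.20), as was Csf3r (1.31, 0.68 to 1.84), but Retnlg, Camp and Ngp had 0 UMIs in the niche and Ly6g and Ltf 1 each. Of the 11 lymphocyte genes, 7 had 0 UMIs in the niche, and the list summed to 6 UMIs, with 10.1 CPM (3.70 to 21.9) against 8.46 CPM in the neighbours. The dendritic cell list had 18 UMIs in the niche, 30.2 against 27.3 CPM. S100a9 was at 1.53 with the neighbours weighted to the depth of the niche's blocks. Thinned shares of bins with a neutrophil UMI were 4.74% (3.34 to 6.50) in the niche and 1.05% in the neighbours, and unthinned 8.79% and 2.51%.

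Part of the neuronal and astrocyte genes were lower in the niche. Of 9 neuronal genes 6 were at least 2-fold lower, with a median of -1.16, and 3 of 9 against phagocyte-bearing neighbours, with a median of -0.87. The shares of lower genes over all genes were 12% against the neighbours and 9.5% against the phagocyte-bearing ones. Snap25, a protein of synaptic vesicle release, had 754 against 2470 CPM (-1.71, -1.85 to -1.58), and Gad2, an enzyme of GABA synthesis, 33.6 against 198 CPM (-2.52, -3.27 to -1.93). Slc17a7, the glutamate transporter of cortical neurons, had the highest ratio of that list (-0.65, -0.86 to -0.45), which was -0.0013 with depth-weighted neighbours. Of 8 astrocyte genes 3 were at least 2-fold lower, and 2 against phagocyte-bearing neighbours, with medians of -0.53 and -0.71. Aldoc was lowest (-1.58, -1.75 to -1.42), and Gfap, the filament of reactive astrocytes, was at -0.14 (-0.23 to -0.06), which became 0.22 with neighbours within 64 bins. The 7 oligodendrocyte genes lay between -0.13 and 0.32, and none passed 2-fold in either direction, with a median of 0.10 that became -0.47 counted per bin. With the neighbours weighted to the depth of the niche's blocks the neuronal median was -0.50 and the oligodendrocyte median -0.59. The summed neuron and astrocyte levels were below those of the neighbours in 13 of 13 patches.

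**Figure D3:**
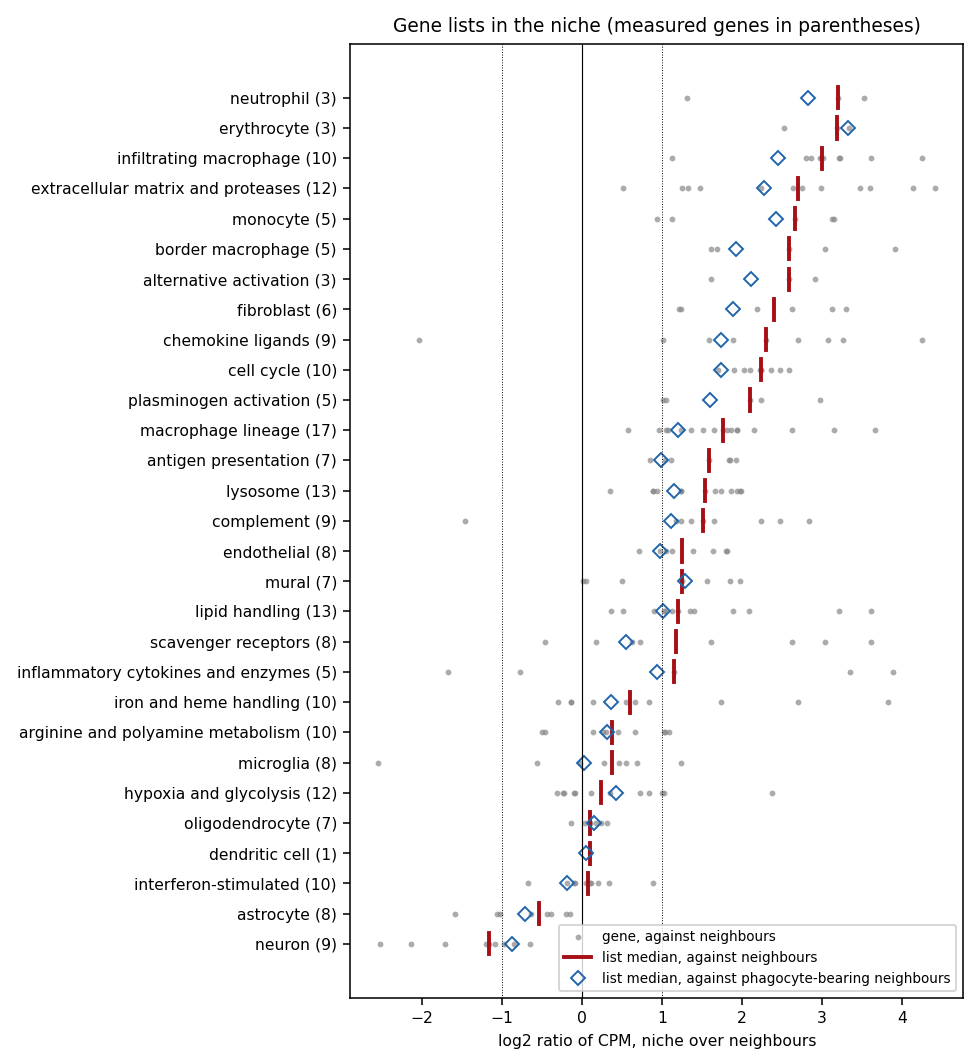
Log2 ratios of CPM for each measured gene of each list against the neighbours (grey points), the list median (red bar) and the median against phagocyte-bearing neighbours (blue diamond), with dotted lines at 2-fold. Some medians include genes that passed the minimum only with their niche UMIs. Without these genes the neutrophil diamond would be at 0.99 over 1 gene in place of 2.83. The diamonds of the inflammatory, border macrophage and monocyte lists would be at -0.78, 1.77 and 2.23 in place of 0.94, 1.93 and 2.42. Those of the chemokine and fibroblast lists would be at 1.28 and 1.59 in place of 1.73 and 1.88. Macrophage, matrix, chemokine and cell cycle lists lie to the right, and microglia, interferon and oligodendrocyte lists near 0.

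The metabolic pathway that Arg1 feeds differed less. Of 10 measured genes of arginine and polyamine metabolism 3 were higher and none lower, with a median of 0.38 that became -0.20 counted per bin. The 3 were Odc1, which turns ornithine into putrescine (1.04, 0.85 to 1.23), Sat1, which acetylates polyamines (1.03, 0.69 to 1.34), and Slc7a1, an importer of arginine (1.09, 0.46 to 1.63). All 3 were close to the 2-fold limit. Against phagocyte-bearing neighbours 1 of the 10 was higher, Slc7a1 at 1.06, and Odc1 was at 0.81 and Sat1 at 0.83. The shares of higher genes over all genes were 10.4% against the neighbours and 7.13% against the phagocyte-bearing ones. With depth-weighted neighbours Odc1 was at 0.73 and Sat1 at 0.75, and counted per bin the 3 were at 0.47, 0.46 and 0.52. Odc1 was above the neighbours in 13 of 13 patches, from 224 to 669 CPM. Ass1, which rebuilds arginine from citrulline, was at -0.49 (-1.21 to 0.09). Nos2, which competes with arginase for arginine, had 5 UMIs in the niche and 25 in the neighbours (1.90, 0.05 to 3.20), and Arg2 3 and 40 (0.58, -1.97 to 2.02). The scavenger receptor list had 4 of 8 measured genes higher (3 of 7 without Cd36), led by Cd36, Stab1 (3.03, 2.73 to 3.32) and Cd68, while Scarb1 was at -0.46 (-1.25 to 0.16) and Marco had 0 UMIs.

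Genes used to describe alternative activation were sparse. The 3 measured members were all higher: Il4ra, the receptor of interleukins 4 and 13 (2.91, 2.47 to 3.33), Tgm2, a transglutaminase (2.59, 2.33 to 2.84), and Mrc1, the mannose receptor (1.61, 0.82 to 2.28). Mrc1 had 20 UMIs in the niche and was above the neighbours in 4 of 13 patches, the only ones with a UMI of it. Its ratio was 0.82 once the 3 patches richest in fibroblast genes were left out. Retnla, Mgl2, Clec10a and Pdcd1lg2 had 0 UMIs in the niche, and Chil3 had 15 in the niche and 15 in the neighbours. Of 5 measured genes of inflammatory cytokines and enzymes 3 were higher and 1 lower, with a median of 1.15, which was 0.19 without Il1rn. Against phagocyte-bearing neighbours 2 were higher, Il1b and Il1rn, with a list median of 0.94. Both passed the minimum only with their niche UMIs, and of the 3 genes left 0 were higher and 1 lower, with a median of -0.78. Il1b had 52.0 against 5.15 CPM (3.34, and 2.73, 2.02 to 3.42, against phagocyte-bearing neighbours) and Il1rn, its natural antagonist, 58.7 against 3.99 CPM (3.88, 3.19 to 4.57), which passed the minimum only with its niche UMIs. Osm, a cytokine of the interleukin 6 family, had 19 UMIs in the niche and 16 in the neighbours. Il1a, in contrast, had 1 UMI in the niche and 82 in the neighbours, a ratio of -1.67 (-7.57 to 0.27), and Il18 was at -0.77 (-1.70 to -0.06). Within the niche Il1b had 27.7 CPM (7 UMIs) in bins that held a rule UMI themselves and 70.0 CPM (24 UMIs) in the other members, where Lyz2 had 1059 and 581 CPM.

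Chemokine ligands were higher in 8 of 9 measured genes, with a median of 2.30 (2.09 over the 8 with at least 50 UMIs in the neighbours alone, which leaves out Ccl7). In this list, which does not hold Pf4, the highest were those that call monocytes: Ccl7 had 52 UMIs against 47 (4.25, 3.66 to 4.86) and Ccl2 92 against 189 (3.07, 2.69 to 3.44). Ccl2 was above the neighbours in 13 of 13 patches and Ccl7 in 7, in each case all the patches that had a UMI of it. Cxcl10, a ligand that interferon induces, was the exception, with 11.7 CPM in the niche and 51.3 CPM in the neighbours (-2.03, -3.45 to -1.07). The interferon-stimulated list had 0 of 10 genes past 2-fold in either direction, with a median of 0.08, Bst2 highest (0.89, 0.53 to 1.22) and Ifit3 lowest (-0.68, -1.15 to -0.27). This median moved with the rule, to 0.91 at a block threshold of 2 UMIs and -1.21 at a threshold of 5, and was 0.56 with neighbours within 64 bins and -0.49 counted per bin. Complement genes were higher as a group. Of 9 measured 8 were higher, led by C3ar1, the receptor of the C3a fragment (2.84, 2.62 to 3.06), and by C5ar1 (2.47, 1.92 to 2.97), while C3 itself had 23.5 against 66.6 CPM (-1.45, -2.38 to -0.75). The C3 value rested on neighbours near choroid plexus or ependyma, and was -0.074 with those left out and the niche unchanged.

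Degradative and lipid genes were higher as groups. In the lysosome list 9 of 13 genes were higher, with a median of 1.54, and 6 of 12 against phagocyte-bearing neighbours, with a median of 1.15, among them the proteases Ctsb, with 1601 against 418 CPM (1.94, 1.84 to 2.04), and Ctsd (1.99, 1.87 to 2.11), and the lysosomal regulator Grn (1.97, 1.82 to 2.12). Each of these was above the neighbours in 13 of 13 patches. The lipid handling list had 10 of 13 higher, with a median of 1.20, and 7 of 13 against phagocyte-bearing neighbours, with a median of 1.02. Without Cd36, which passed the minimum only with its niche UMIs, 9 of 12 and 6 of 12 were higher, with medians of 1.16 and 0.99. Besides Plin2 and Cd36, Lpl, which frees fatty acids from lipoproteins, was at 2.08 (1.65 to 2.48) and Abca1, which exports cholesterol, at 1.35 (1.07 to 1.60). Apoe was at 0.51 (0.45 to 0.57), which became -0.061 counted per bin. In the iron and heme list 3 of 10 were higher, with a median of 0.61: Hmox1, Slc11a1 (2.70, 2.11 to 3.23), which moves iron out of phagosomes, and the iron exporter Slc40a1 (1.73, 0.54 to 2.66). This median was 0.07 with depth-weighted neighbours. Against phagocyte-bearing neighbours 2 of 9 were higher, with a median of 0.37. Over all genes 10.4% were higher than in the neighbours and 7.13% than in the phagocyte-bearing ones. Fth1, the ferritin heavy chain, was at 0.66 and Tfrc, the transferrin receptor, at -0.29 (-0.92 to 0.23).

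Red cell transcripts were also higher over the niche as a whole, though not in every patch. Whether they lay in the same single bins as Hmox1 was not counted. Hba-a2 and Hbb-bs, the adult globins, had 203 and 154 CPM in the niche against 22.4 and 15.4 CPM in the neighbours (3.19, 2.85 to 3.51, and 3.33, 2.94 to 3.71). Hmox1 was above the neighbours in every one of the 13 patches. Hba-a2 and Hbb-bs were above them in 7 and 8, which were all the patches with a UMI of them. For these sparser genes the count shows only detection. The erythrocyte list was at 0 UMIs in patches 2, 3, 5, 11 and 13 and at 1923 CPM in patch 12, a patch with few UMIs. Outside the niche, Hba-a2 had 128 CPM in bins with 1 or 2 rule UMIs. With the neighbours weighted to the depth of the niche's blocks the ratios of Hba-a2 and Hbb-bs were 1.01 and 1.17, and that of Hmox1 was 3.33. The part of red cells in the Hmox1 result was not tested.

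Genes of antigen presentation were higher in 6 of 7 measured, with a median of 1.59 against the neighbours and 0.99, with 3 of 7 past 2-fold, against the phagocyte-bearing ones. H2-Aa, a class II chain, was at 1.84 (1.52 to 2.15) and Cd74, its chaperone, at 1.92 (1.65 to 2.18), and B2m at 0.86 (0.45 to 1.22). H2-Aa was above the neighbours in 6 of 13 patches. In glycolysis and hypoxia 2 of 12 genes were higher, with a list median of 0.23, and 1 of 11 against phagocyte-bearing neighbours, so both counts were not far from the shares over all genes. The 2 were Hk2, a hexokinase (2.38, 1.70 to 2.98), and Ldha (1.03, 0.71 to 1.32).

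Cell cycle transcripts were frequent in the niche. All 10 measured cell cycle genes were higher in both comparisons, with medians of 2.23 and 1.74. Mki67, a marker of cycling cells, had 188 CPM in the niche, 87.2 CPM in bins with 1 or 2 rule UMIs, 46.2 CPM in the neighbours and 3.64 CPM at columns of 130 and above (2.03, 1.71 to 2.32). Ube2c, which acts at the end of mitosis, had the highest ratio (2.59, 2.14 to 3.00) and Ccnb2 the lowest (1.70, 1.02 to 2.29). After thinning to 300 UMIs, 22.2% (19.3 to 25.4) of 760 niche bins held a cell cycle UMI, 7.04% (6.54 to 7.57) of the neighbours and 9.19% (8.45 to 9.98) of the phagocyte-bearing neighbours. Thinning left out 207 niche bins, and unthinned shares were 33.4%, 13.2% and 17.8%. The cell cycle list had 905 CPM in members with a rule UMI of their own and 922 CPM in the other members. Which cells in these bins were dividing cannot be read from them.

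Matrix genes were high in the niche, and part of their signal came from a few patches. In the list of matrix and proteases 11 of 12 measured genes were higher, with a median of 2.70. Tnc, a matrix protein of wounds, had 824 against 68.2 CPM (3.60, 3.43 to 3.76), Fn1, fibronectin, 878 against 130 CPM (2.75, 2.61 to 2.90), and Timp1, an inhibitor of metalloproteinases, 453 against 72.7 CPM (2.64, 2.43 to 2.84). The fibroblast collagens Col1a1 (3.13, 2.92 to 3.33) and Col3a1 (3.30, 3.09 to 3.50) were among the highest genes of the niche, and 6 of 6 measured fibroblast genes were higher, with a median of 2.40. Plasminogen activation genes were higher in 5 of 5 measured, with Plaur, the urokinase receptor, highest (2.98, 2.45 to 3.47).

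The fibroblast signal was uneven. Patches 2, 4 and 7, numbered by size, had 6123, 6753 and 6752 CPM of the fibroblast list, and the other 10 patches between 63.6 and 396 CPM, against 274 CPM in the neighbours. Col1a1 was above the neighbours in 4 of the 13 patches and Lox, a collagen cross-linker, in 3, the only patches with a UMI of Lox. With these 3 patches left out, a choice made after their levels were seen, 802 members remained and the fibroblast median was 0.42 and the matrix median 1.43. Col1a1 then had a ratio of 0.37 and Timp1 1.47, and Acta2, an actin of smooth muscle and contractile fibroblasts, turned from 1.85 to -0.73. Thbs1 (4.16), Adam8 (4.04), Spp1 (4.15) and Tnc (2.57) stayed high, and the medians of infiltrating macrophage genes (3.07) and cell cycle genes (2.07) changed little. Endothelial genes, 6 of 8 higher at a median of 1.26 and 3 of 8 at 0.97 against phagocyte-bearing neighbours, had a median of 0.70 without these patches, and mural genes 0.16 in place of 1.25.

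The patches differed in the tissue they lay in and less in their macrophage genes. Oligodendrocyte transcripts reached 12454 to 16592 CPM in patches 1, 6, 8, 9 and 13 and 368 and 351 CPM in patches 4 and 7, against 7119 CPM in the neighbours. Neuronal transcripts were highest in patches 3 and 12, at 5897 and 5421 CPM, and 445 CPM in patch 6. Patch 3 had the lowest level of infiltrating macrophage genes, 2103 CPM, which was still above the 765 CPM of the neighbours, and patch 6 the highest, 9918 CPM. The neutrophil list was at 635, 1081, 819 and 945 CPM in patches 4, 6, 8 and 10, which also carried erythrocyte transcripts at 574 to 1335 CPM, and at 0 to 525 CPM in the other patches. Antigen presentation genes stood out in patches 8 and 9, at 3114 and 2657 CPM, against 162 to 1612 CPM elsewhere. Patches of 1 section are not replicates, and the smallest sums, in patches 10 and 12, were 7404 and 5719 UMIs.

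**Figure D4:**
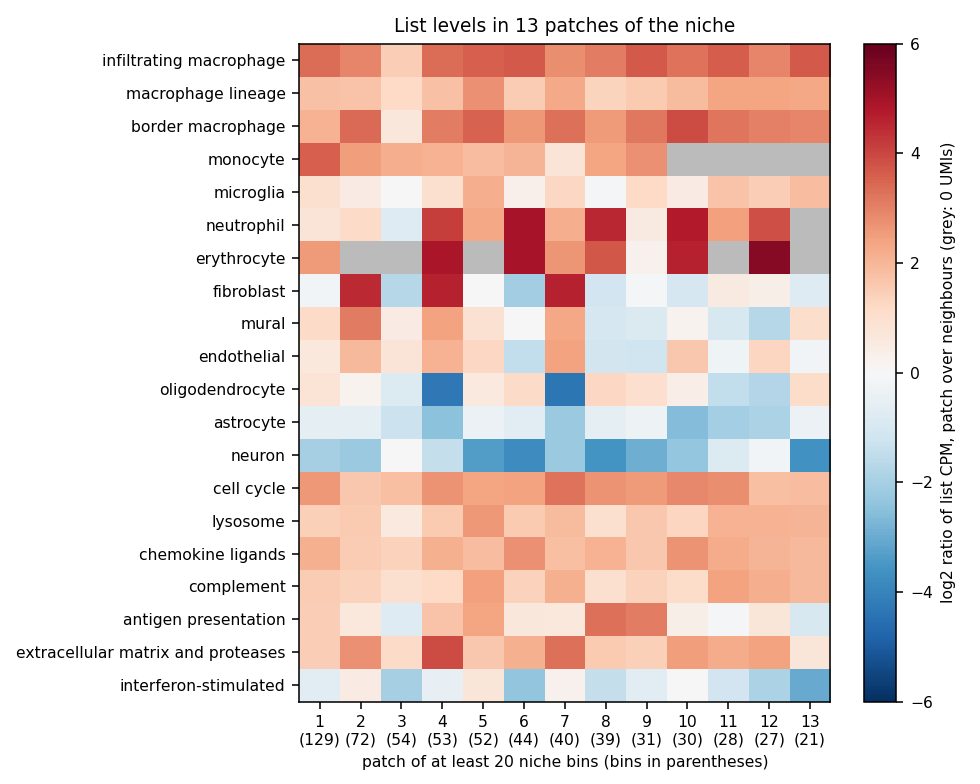
Log2 ratio of summed list CPM in each of 13 patches of at least 20 niche bins over the neighbours, by patch from the largest to the smallest, with grey cells at 0 UMIs. Infiltrating macrophage, macrophage lineage, border macrophage, cell cycle, lysosome, chemokine and complement lists are above the neighbours in all 13 patches, and the fibroblast list mainly in patches 2, 4 and 7.

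Levels were graded with the number of rule UMIs in the block. The infiltrating macrophage list had 765 CPM in neighbours, 1980 CPM at 1 rule UMI, 3033 CPM at 2, 4465 CPM at 3 or 4, 7503 CPM at 5 to 9 and 9343 CPM at 10 or more. Spp1 followed the same order, with 1371 CPM at 2 rule UMIs, 2109 CPM at 3 or 4 and 4787 CPM at 10 or more. Neuronal genes ran down from 5993 to 1749 CPM over the same classes. Interferon-stimulated genes were highest at 2 rule UMIs, with 1006 CPM, and lowest at 5 to 9, with 495 CPM. Fibroblast genes had 2031 CPM at 5 to 9 and 1059 CPM at 10 or more. These classes are parts of the rule and are given as a description.

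Levels in the neighbours varied with distance from the niche. These bands hold only bins with 0 rule UMIs in the block, so the bins with 1 or 2 that lie between are left out and part of the step at the border is set by the rule. The infiltrating macrophage list had 5800 CPM in the niche, 1809 CPM in neighbours up to 4 bins away, 978 CPM at 4 to 8 bins, 843 CPM at 8 to 16 and 493 CPM at 16 to 32. Hmox1 went from 1374 CPM in the niche over 487, 117 and 58.1 to 38.0 CPM, and Thbs1 from 863 CPM over 165, 52.8 and 19.5 to 23.6 CPM. Erythrocyte transcripts were 393 CPM in the niche, 285 CPM up to 4 bins away and 5.15 CPM at 16 to 32 bins. Microglial genes changed less, from 1103 CPM in the niche to 665 CPM in the nearest band and 510 CPM in the farthest. Astrocyte genes were highest outside the niche, with 7482 CPM at 8 to 16 bins, and Gfap highest at 4 to 8 bins, with 3254 CPM against 2202 CPM in the niche. Neuronal genes were at 4147 CPM in the nearest band and 6918 CPM in the farthest. The bands also cross different brain regions, which cannot be told apart from distance.

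**Figure D5:**
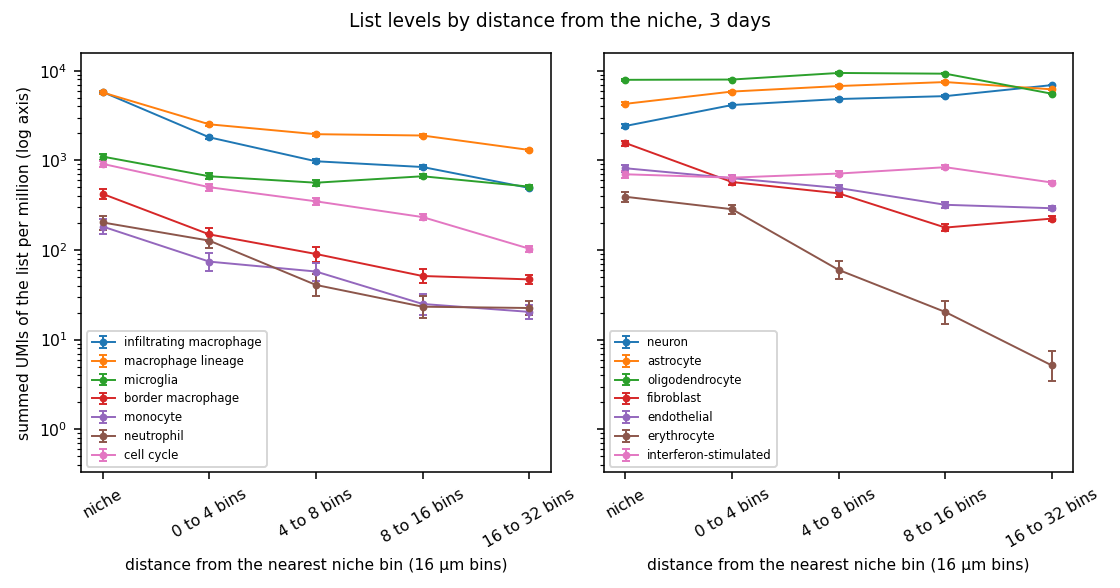
Summed level of each list in CPM (log axis) in the niche and in 4 bands of neighbours by distance to the nearest niche bin, with 95% counting intervals. Myeloid and cell cycle lists decline outward from the niche, neuronal genes are lowest in it, and interferon-stimulated genes show no such gradient.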

How the data were processed

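The authors processed 1 Visium HD section per time point with Space Ranger 4.0.1 and the mouse probe set, and deposited raw UMI counts per gene and 16 µm bin, with no normalization. The submitters' processing notes name mm10, and no coordinates are given here. Probes for 19065 gene symbols were listed, and probes of 1 symbol were summed. Eno1, Ftl1, Ly6c2 and Olfml3, which the lists hold, were not analysed here.

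The niche, its neighbours and the gene lists were chosen with earlier results of these data known. Blocks were summed over all deposited bins and distances were Euclidean. UMIs were summed over each set of bins, and genes with at least 50 UMIs over both sets were counted as measured. Intervals of ratios are exact conditional binomial ones and those of shares are exact Clopper-Pearson, at 95%. They take UMIs and bins as independent and leave out the spread between animals. Probe counts were not compared between genes.

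Genes named beyond the lists were the 15 highest and 10 lowest ratios among those with at least 200 UMIs, and in each list the ends, the highest level and, for cell types, members at 0 to 2 UMIs. Some genes that this rule names are not reported here. Patches of at least 20 members replaced the planned minimum of 100, which 1 patch reached. Alternatives were other block, bin, gene and distance limits, other scalings, depth-weighted neighbours, and sets without the largest patch or the array edge. The script was tested on simulated data. TMM factors came from edgeR 4.0.16 in R 4.3.3, and the rest was computed in Python 3.11.15 with scipy 1.17.1, pandas 2.3.3, numpy 2.4.6 and matplotlib 3.10.9.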

Additional observations from a re-analysis of the deposited data

Results flagged for a closer look

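The same block rule, without a column limit, was met by 115 bins of the 28 days section, a signal outside the comparison of the report. In the 3 days section 967 bins met it at columns under 130 and 0 at column 130 and above. The 115 bins held a median of 2261 UMIs, against 596 UMIs over all bins of that section and 539 UMIs in the niche at 3 days. In the 115 bins Spp1 had 2157 CPM and Gpnmb 7721 CPM, beside 2732 and 566 CPM in the niche at 3 days, while Thbs1 had 89.5 CPM beside 863 CPM and Hmox1 167 CPM beside 1374 CPM. The rule counts UMIs whatever the depth, so deeper bins can meet it at a lower share of Arg1 and Msr1. These levels therefore come from unlike bins, and with 1 section per time point the differences were not tested.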

How the results depend on the processing

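Across 18 other settings the infiltrating macrophage, macrophage lineage and fibroblast medians stayed above 0 and the neuronal median below it. A block threshold of 2 UMIs gave 1736 members, a fibroblast median of 1.60 and a neuronal median of -0.81, and turned Gfap to 0.18 and Ifit3 to 0.22, and a threshold of 5 gave 367 members. Neighbours within 16 bins gave 780 genes higher and 872 lower, and 523 and 624 against phagocyte-bearing neighbours, with infiltrating macrophage, fibroblast and neuronal medians of 2.33, 1.84 and -0.94. Neighbours within 64 bins gave an infiltrating macrophage median of 3.55 and Gfap at 0.22. Counted per bin, 574 genes were higher and 3537 lower (275 and 3132 against phagocyte-bearing neighbours), the macrophage lineage, fibroblast and neuronal medians were 1.19, 1.83 and -1.73, and the arginine and polyamine median (-0.20) and Apoe (-0.061) turned negative. At least 200 UMIs a gene left 658 higher and 978 lower, and 325 and 520 against phagocyte-bearing neighbours, because fewer genes were measured. With neighbours weighted to the block depth of the niche 873 genes were higher and 975 lower, and 504 higher and 664 lower against phagocyte-bearing neighbours, and the macrophage lineage, infiltrating macrophage and neuronal medians were 1.24, 2.38 and -0.50. Neighbours without choroid plexus or ependymal UMIs, a choice made after the data were seen, gave a neuronal median of -1.39 and Ttr at 0.41. Without the 3 fibroblast patches, also chosen so, the fibroblast median was 0.42, Acta2 was at -0.73 and Gfap at 0.014. The causes of these shifts were not tested except where stated. The microglial median lay between -0.20 and 0.47. Of 521 list medians recomputed, 431 stayed within the counting interval of the reported value and the others moved beyond it. Of these, 6 also changed sign, in the arginine and polyamine, oligodendrocyte and interferon-stimulated lists. With those that stayed within the interval, 17 changed sign, also in the microglia, dendritic cell and hypoxia lists. The interval of a median is the mean of the intervals of the middle gene or genes, so it is wide where these are sparse. TMM scaling moved all ratios down by 0.07. No paired analysis was possible because each group had 1 section.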
